A study of Mus musculus with 10 samples.

Results

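The transcripts of 10 named Notch pathway genes were followed through AT2 (alveolar type II) cells, which line the lung alveolus and make surfactant. The list held the receptors Notch1 to Notch4, the ligands Jag1, Jag2 and Dll1, the DNA-binding protein Rbpj and the target genes Hes1 and Hey1. All 10 had a row among the 16154 Ensembl genes measured, and 9 passed a filter on low values, which Dll1 did not. The genes were chosen by name, but with the knockout against wild type fold changes and p-values of these data in view, in which Notch2 lay among the higher genes closest to the threshold. Member values in that contrast are therefore descriptions and support nothing. The cells were sorted from C57BL/6 mice aged 8 to 10 weeks, with 5 libraries from wild type animals (replicates 2 to 6) and 5 from HOIL-1L knockouts (replicates 1 to 5). HOIL-1L, encoded by Rbck1, belongs to the complex that builds linear ubiquitin chains. The sample labels give the knockouts as HOIL-1L -/-, while the design text gives a floxed allele deleted by Cre under the surfactant protein C promoter, which is active in AT2 cells. Each title carries a separate mouse number, so each library was taken as 1 mouse. The letter N in every title is not explained.

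Notch receptors are transmembrane proteins that are activated by ligands of the Jagged and Delta-like families on a neighbouring cell. Ligand binding exposes the receptor to cleavage by ADAM proteases and then by gamma-secretase, and the freed intracellular domain joins RBPJ and a Mastermind coactivator to switch on genes such as Hes1 and Hey1. In the lung the pathway is best known for the choice between secretory and ciliated fates in the airway, and it also takes part in alveolar development and repair.

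Depth behind the libraries was roughly 7.69 to 13.2 M reads (M for mega), and values are normalized counts per M. Rbck1, the targeted gene, stood at 56.1 to 57.8 per M in wild type 3 to 6 but at 29.7 in wild type 2, and at 29.8 to 38.8 in knockout 2 to 5 but at 59.3 in knockout 1. Its difference as labelled was not larger than the spread (two-sided p = 0.206 by exact permutation of the libraries, which can reach 0.00794 at the lowest). The libraries labelled wild type 2 and knockout 1 thus went against their labels, and member results are given with and without them. The AT2 markers were high, with surfactant protein C (Sftpc) at 110469 to 147854 per M. The 5 endothelial markers with a row summed to 10.4 to 15.6 per M in wild type and 9.83 to 14 in knockout. Of these the VEGF receptor gene Kdr stood at 4.88 to 11.3 per M and the angiopoietin receptor gene Tek at 1.31 or more in every library, while Vwf and Pecam1 were at most 2.15 and 1.97 and the endothelial cadherin gene Cdh5 at most 0.103. The 8 fibroblast, smooth muscle and pericyte markers summed to 4.18 to 10.7 and 1.06 to 6.41. The collagen genes Col1a1 and Col1a2 and the proteoglycan gene Dcn reached 3.32, 2.7 and 2.12 there, and the pericyte genes Rgs5 and Pdgfrb 1.78 and 0.579, both at 0 in some libraries. Club cell markers summed to 4635 to 9179 and 4873 to 9037. AT1 (alveolar type I) markers summed to 2202 to 2838 and 2189 to 2603, and ciliated cell markers to 167 to 307 and 174 to 254. Ager (1542 to 2209 per M) and Aqp5 (360 to 502) made up most of the AT1 sum. The AT1 markers Clic5, Hopx, Cav1, Pdpn and Rtkn2 reached at most 127, 73.5, 28.4, 19.2 and 14.1. Macrophage and leukocyte markers summed to 19 to 28.2 and 19.2 to 34.6, and mesothelial markers to 2.23 to 9.53 and 3.85 to 21.3. Csf1r (9.67 to 16.5) and Cd68 (3.54 to 11.6) made up most of the macrophage and leukocyte sum, with Mrc1 at most 4.37 and Ptprc at most 2.61. Basal, neuroendocrine and lymphocyte markers summed to at most 6.97, 5.34 and 0.297 in any library. In such pooled cells, fewer cells of a type and less RNA per cell cannot be told apart.

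The region upstream of each receptor's start is shown first, because the results begin with the receptors. Of the 10 members, 8 had a promoter window in RefSeq (build GRCm38.p6), and the 250 bases before the start are printed 5′ to 3′ on the gene's strand. Capitals mark GC boxes (GGGCGG on either strand), the binding motif of Sp-family factors.
Notch1: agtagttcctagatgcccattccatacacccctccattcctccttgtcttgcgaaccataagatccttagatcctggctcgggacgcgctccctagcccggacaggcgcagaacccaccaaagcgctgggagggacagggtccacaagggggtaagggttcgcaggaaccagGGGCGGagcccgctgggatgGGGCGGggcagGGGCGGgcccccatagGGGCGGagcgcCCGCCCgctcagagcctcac
Notch2: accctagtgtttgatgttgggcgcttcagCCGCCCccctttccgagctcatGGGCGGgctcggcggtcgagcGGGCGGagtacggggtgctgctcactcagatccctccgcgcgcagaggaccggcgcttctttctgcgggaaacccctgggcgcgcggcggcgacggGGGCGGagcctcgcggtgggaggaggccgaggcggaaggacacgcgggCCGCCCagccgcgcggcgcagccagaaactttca
Notch3: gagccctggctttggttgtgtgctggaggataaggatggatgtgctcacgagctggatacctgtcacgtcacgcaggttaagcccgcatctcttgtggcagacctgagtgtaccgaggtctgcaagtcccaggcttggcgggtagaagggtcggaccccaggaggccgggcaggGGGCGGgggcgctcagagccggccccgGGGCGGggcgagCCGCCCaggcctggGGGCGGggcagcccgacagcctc
Notch4: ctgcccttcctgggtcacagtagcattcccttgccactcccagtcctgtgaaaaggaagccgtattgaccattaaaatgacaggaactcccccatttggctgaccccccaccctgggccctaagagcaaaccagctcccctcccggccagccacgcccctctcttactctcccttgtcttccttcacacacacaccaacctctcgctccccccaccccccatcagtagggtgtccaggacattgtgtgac
The windows lie at chr2:26503823-26504072 (Notch1, minus strand), chr3:98013288-98013537 (Notch2, plus), chr17:32166891-32167140 (Notch3, minus) and chr17:34564045-34564294 (Notch4, plus). In GENCODE M21 they held 2, 11, 0 and 27 exonic bases, and that of Notch1 fell within the span of a longer gene model. GC boxes numbered 5 in Notch1, 5 in Notch2, 4 in Notch3 and 0 in Notch4, and 32.7% of all 32851 windows held at least 1. The windows of Notch1, Notch2 and Notch3 held 16, 34 and 17 CpG pairs and that of Notch4 held 4, against a median of 6 over all windows. A kappa-B motif, searched on both strands, matched in Notch2 alone of these windows, at gggaaacccc starting 112 bases before the start; 3.9% of all windows held 1. The RBPJ core TGGGAA was in 0 of the receptor windows and in 21.6% of all windows. Both windows of Rbpj held it, but these windows overlap and share 1 of the sites. These matches are letters only and say nothing on binding.

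Notch2 was the one member whose groups did not overlap (chromosome 3, 98013527 to 98150361, mm10, plus strand, ENSMUSG00000027878). It encodes a receptor with a main part in airway secretory cell identity. Notch2 stood at 132, 153, 121, 149 and 167 per M in wild type 2 to 6 and at 174, 194, 221, 175 and 207 in knockout 1 to 5. Every knockout library lay above every wild type library, with knockout 1 the lowest of its group and wild type 6 the highest of the other. Of the 12946 genes tested, 0.958% were likewise higher without overlap, and 3.85% when the 2 doubted libraries were left out. The means were 144 ± 18 and 194 ± 20.4 (SD, n = 5 each). The log2 fold change was 0.43 ± 0.09 (SE, 95% interval 0.24 to 0.62) and did not pass over all genes (limma adjusted p = 0.285). Without the 2 doubted libraries it was 0.44 (interval 0.24 to 0.64, limma adjusted p = 0.0574). It was 0.46 within the first run of mouse numbers and 0.40 within the second. All groups here are as labelled. Were wild type 2 and knockout 1 placed by their Rbck1 level instead, wild type 2 (132) would make the Notch2 groups overlap.

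Notch1, the founding receptor of the family, showed a smaller contrast of the same sign (chromosome 2, 26457903 to 26516663, minus strand, ENSMUSG00000026923). It stood at 77.2, 80.4, 74.5, 85.1 and 102 per M in wild type 2 to 6 and at 94.9, 93.8, 109, 94.2 and 117 in knockout 1 to 5. The groups overlapped through wild type 6 alone, which lay above knockout 1, 2 and 4. The log2 fold change was 0.28 ± 0.09 (SE, interval 0.09 to 0.47) and did not pass (limma adjusted p = 0.359). Without the doubted libraries it was also 0.28 (adjusted p = 0.251, limma). Exons of Notch1 share 1068 bases with 0610009E02Rik on the opposite strand, which reached 13.5 per M, and without a stated strand setting their reads cannot be told apart.

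Notch3 and Notch4 were low. Notch3, a receptor best known in pericytes and vascular smooth muscle (chromosome 17, 32120820 to 32166852), lay between 3.33 and 5.52 per M in wild type and between 4.24 and 6.95 in knockout. Its log2 fold change was 0.18 ± 0.17 (SE) as labelled and 0.04 ± 0.17 without the doubted libraries. Within the first run it was 0.55 ± 0.23 (SE, limma adjusted p = 0.490), and within the second the sign turned, at -0.18 ± 0.22. The first run holds both doubted libraries, wild type 2 at 3.33 and knockout 1 at 5.8 per M. Notch4, a receptor mainly of endothelium (chromosome 17, 34564268 to 34588503), reached 1 per M in 7 of 10 libraries. It stood at 0.583 in wild type 2 and at 1.47 to 1.58 in the other wild type libraries, and between 0.789 and 1.7 in knockout. These values rest on about 5.35 to 21 reads per library. Notch4 had a log2 fold change of -0.14 ± 0.26 (SE), and of -0.36 ± 0.27 without the doubted libraries.

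**Figure D1:**
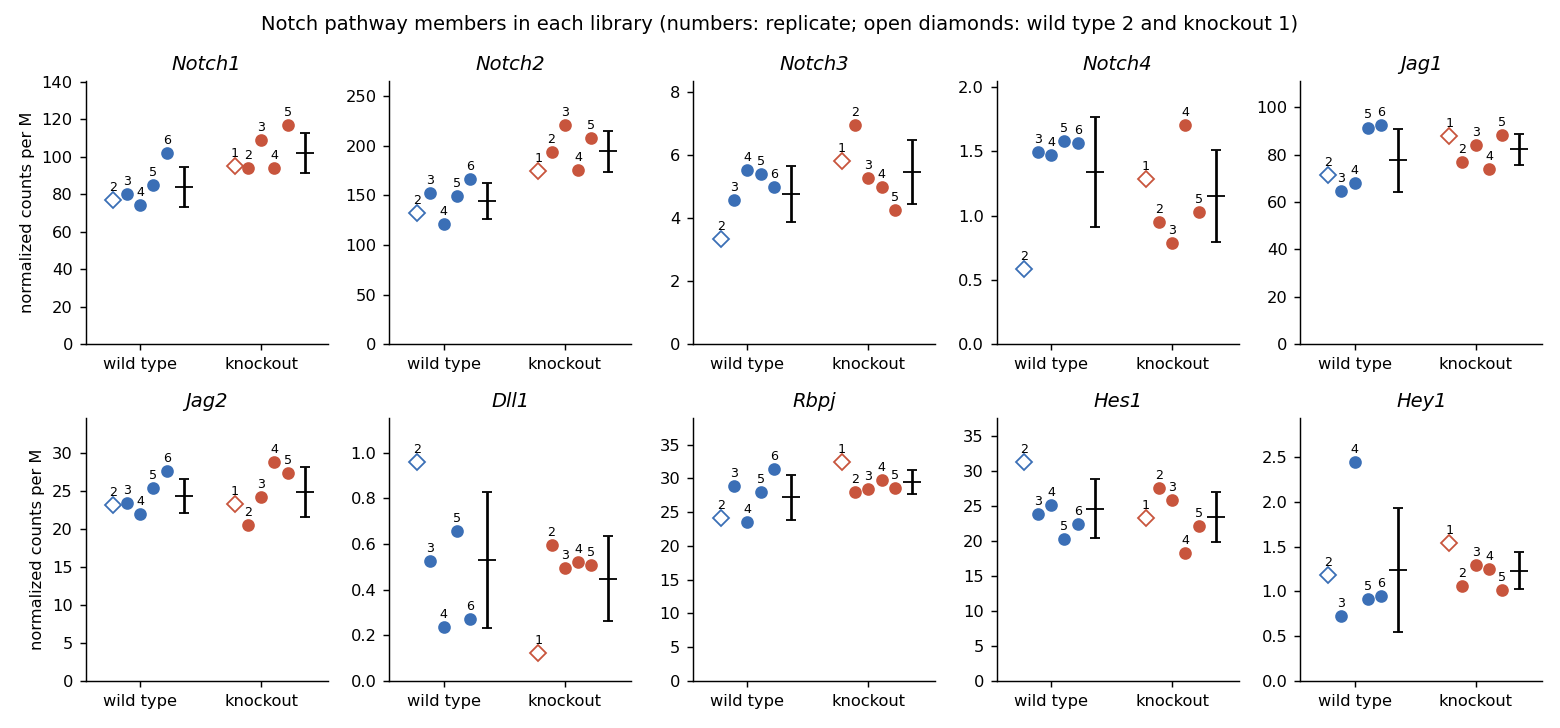
Normalized counts per M of the 10 members in each library, wild type in blue and knockout in red, numbered by replicate; black bars give the mean and SD (n = 5), and open diamonds are the libraries labelled wild type 2 and knockout 1. Notch2 alone has groups that do not overlap (121 to 167 against 174 to 221), and the y axes differ between panels.

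Among the ligands Jag1 was high, Jag2 moderate and Dll1 near 0. Jag1 (chromosome 2, 137081456 to 137116644) stood at 71.6, 64.5, 67.9, 91.5 and 92.6 per M in wild type 2 to 6 and at 88.1, 77, 84, 74.1 and 88.5 in knockout 1 to 5. The highest 2 libraries were wild type 5 and 6, and the log2 fold change was 0.10 ± 0.10 (SE, interval -0.12 to 0.31). For Jag1 it was 0.05 ± 0.11 without the doubted libraries, 0.29 ± 0.10 within the first run (limma adjusted p = 0.415) and -0.04 ± 0.14 within the second, and leaving out any 1 library gave 0.04 to 0.17. Jag2, the other Jagged ligand (chromosome 12, 112907819 to 112929776), ranged from 22 to 27.7 in wild type and from 20.6 to 28.9 in knockout. Its means of 24.4 ± 2.24 and 24.9 ± 3.31 (SD, n = 5 each) differed by less than the spread, and its log2 fold change was 0.03 ± 0.10 (SE, interval -0.19 to 0.24), and 0.03 ± 0.12 without the doubted libraries. Dll1, a Delta-like ligand (chromosome 17, 15367354 to 15376872), lay between 0.122 and 0.961 per M. That is about 0.991 to 8.82 reads per library, with 0 libraries at 1 per M, and no fold change is given. Dll4, a Delta-like ligand of endothelium outside the named members, was likewise below the filter.

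Rbpj, the DNA-binding protein through which all 4 receptors act (chromosome 5, 53466152 to 53657362), varied little. It stood at 24.1, 28.9, 23.6, 28 and 31.4 per M in wild type 2 to 6 and at 32.5, 28, 28.5, 29.8 and 28.6 in knockout 1 to 5. Wild type 2 and 4 lay well below every knockout library, wild type 5 lay level with knockout 2, and wild type 3 and 6 lay among the knockouts. The log2 fold change was 0.12 ± 0.09 (SE), and 0.04 ± 0.10 without the doubted libraries.

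Of the target genes Hes1 was readily measured and Hey1 was low, and neither differed beyond its spread. Hes1, a transcriptional repressor induced by Notch and by other signals (chromosome 16, 30064384 to 30067796), stood at 31.4, 24, 25.2, 20.4 and 22.5 per M in wild type 2 to 6. In knockout 1 to 5 it was 23.3, 27.7, 25.8, 18.3 and 22.2. The groups overlapped almost wholly, with the extremes in wild type 2 and knockout 4. The log2 fold change of Hes1 was -0.07 ± 0.12 (SE, interval -0.33 to 0.19), and 0.02 ± 0.12 without the doubted libraries. Hey1, a related repressor best known as a Notch target in vessels (chromosome 3, 8663359 to 8667256), lay between 0.721 and 2.45 per M in wild type and between 1.01 and 1.54 in knockout. It rested on about 7.19 to 21.5 reads per library, and its log2 fold change of 0.06 ± 0.26 (SE) had an interval from -0.50 to 0.62. Without the doubted libraries it was 0.00 ± 0.31.

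Levels of different genes were compared per kb of exon. On that scale Notch2 stood at 15.7 ± 2.97 per M per kb (SD over all 10 libraries), Jag1 at 13.7 ± 1.76 and Hes1 at 11.8 ± 1.83, and the ranges of these neighbours overlapped. Notch1 followed at 6.52 ± 0.976, Jag2 at 3.54 ± 0.385 and Rbpj at 2.22 ± 0.219, each with a range apart from its neighbours. Notch3 at 0.631 ± 0.119 and Hey1 at 0.379 ± 0.148 overlapped, as did Notch4 at 0.154 ± 0.0476 and Dll1 at 0.116 ± 0.0565. With the longest protein-coding transcript as the length, Hes1 (16.4 ± 2.53) came first, before Notch2 (16.1 ± 3.05), and Rbpj (5.16 ± 0.509) came before Jag2 (4.83 ± 0.525). In both pairs the ranges overlapped, so neither order is settled. All exons of Rbpj span 12750 bases against 5485 for its longest protein-coding transcript.

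**Figure D2:**
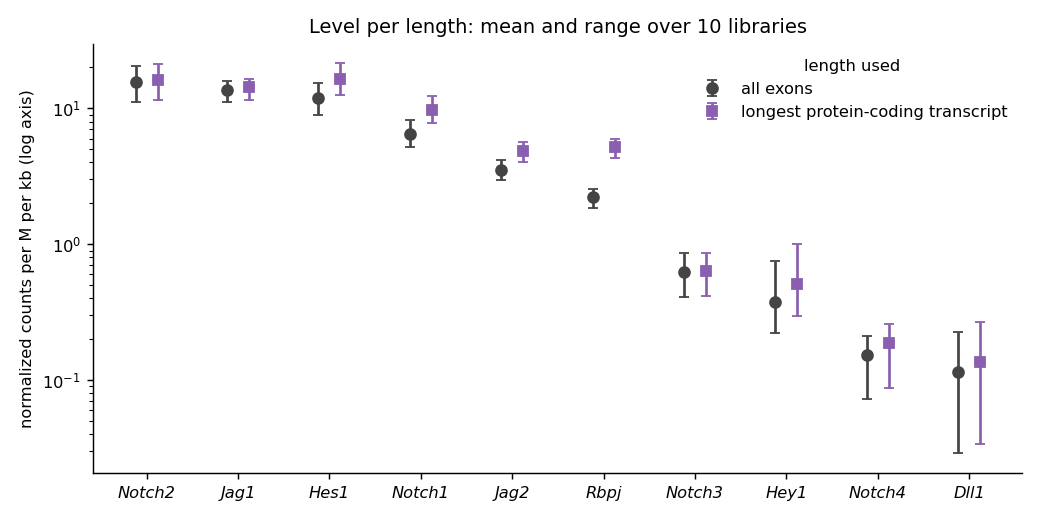
Level per length of the 10 members in normalized counts per M per kb on a log axis, as mean and range over the 10 libraries, for 2 definitions of gene length. Notch2, Jag1 and Hes1 lie highest and overlap, and Notch4 and Dll1 lie lowest.

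As a list the members showed no called difference. With all 10 libraries, 0 of the 9 tested members passed a limma adjusted p of 0.05, as did 0% of all genes. At an unadjusted p under 0.05 there were 2 members, Notch1 and Notch2, both higher, against 9.48% of all genes in either direction and 6.2% higher. The log2 fold change was above 0 for 7 of 9 members with a median of 0.10, against 51.3% of all genes above 0 with a median of 0.01. Without the doubted libraries 8 of 9 lay above 0 with a median of 0.04, and 0 members passed, where 0.402% of all genes did (0.286% higher). The same 2 members had an unadjusted p under 0.05 there, as did 13.1% of all genes (7.84% higher). Adding wild type 6 or knockout 4 to the libraries left out brought Notch2 past the threshold (limma adjusted p = 0.0311 and 0.0297). In those fits 100 and 84 of the 12946 genes passed. Of the libraries kept, wild type 6 was the highest wild type and knockout 4 the lowest knockout in Notch2. Leaving out either therefore widened its gap. Over all such omissions of 1 more library its limma adjusted p ran from 0.0297 to 0.237. They were added after seeing the data and support nothing.

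**Figure D3:**
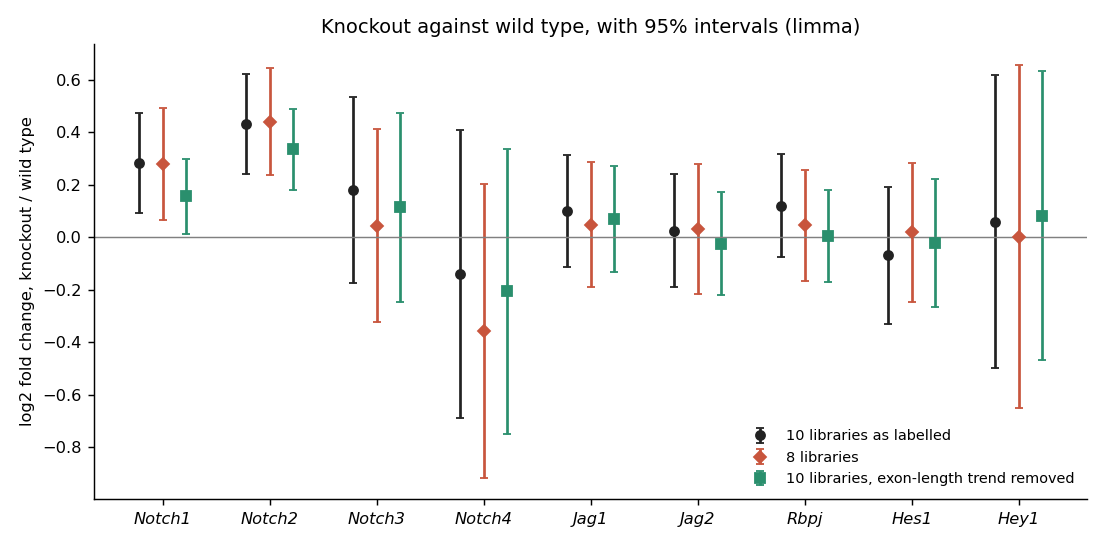
Log2 fold change, knockout over wild type, of the 9 tested members with 95% intervals from limma, for all 10 libraries, for the 8 without wild type 2 and knockout 1, and with each library's exon-length trend removed. The intervals of Notch1 and Notch2 lie above 0 in all of these fits, and those of the other 7 members include 0.

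Exon length moved with the contrast. The tested genes were divided into 10 equal bins by exon length. The median log2 fold change ran from -0.08 in the shortest bin (up to 1533 bases) to 0.11 in the longest (from 9771 bases). Notch1, Notch2 and Rbpj belong to bin 10, Notch3 and Notch4 to bin 9, and Hes1 to bin 2. In bin 10, 3.19% of genes were higher in knockout without overlap. The gap between the longest and the shortest bin, as median log2 deviation from each gene's mean, ran from -0.32 (wild type 4) to 0.13 (wild type 6) in wild type. In knockout it ran from -0.02 (knockout 1) to 0.21 (knockout 5). Wild type 4, lowest in this gap, was also lowest in Notch1 and Notch2. Wild type 6 exceeded knockout 1, 2 and 4 in the gap and in Notch1, but lay below them in Notch2. With each library's length trend removed, Notch2 was at 0.33 ± 0.07 (SE, limma adjusted p = 0.470), Notch1 at 0.16 ± 0.07 (0.629) and Rbpj at 0.01 ± 0.08 (0.990). The members above 0 were then 6 of 9. What part RNA quality has in this trend was not tested.

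**Figure D4:**
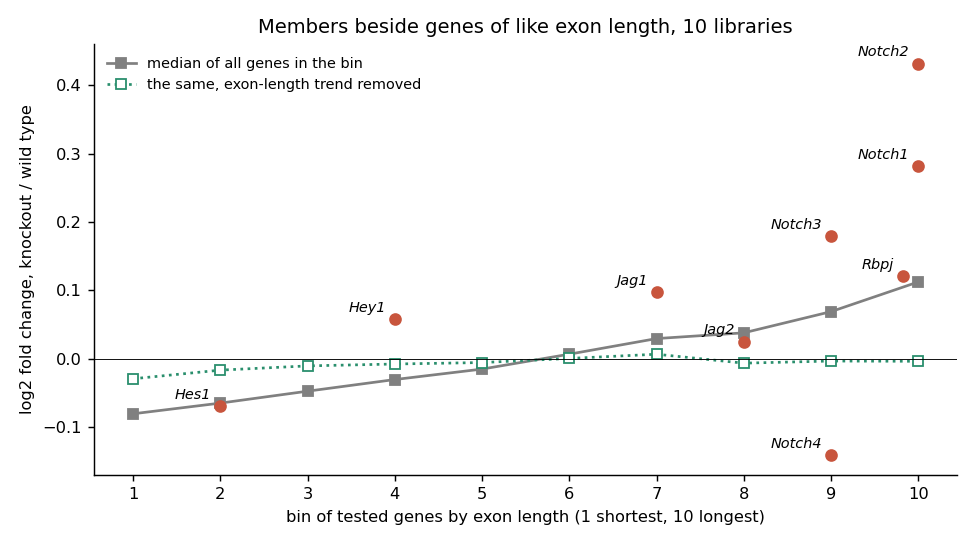
Log2 fold change of each tested member (red) placed in its bin among 10 equal bins of all tested genes by exon length, with the median of all genes in each bin before (grey) and after (green) removal of the length trend, 10 libraries. The grey median runs from -0.08 to 0.11, Rbpj (drawn slightly to the left of its bin) lies near it, and Notch2 and Notch1 lie above it.

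By mouse number the libraries form 2 runs, though no label names them as batches. The first holds wild type 2 and 3 with knockout 1 to 3, and the second the remaining libraries. With the group as a covariate 0.626% of all genes and 0 of the 9 members differed between the runs (limma, adjusted). At an unadjusted p under 0.05 there were 2 members, against 15.8% of all genes. Hes1 stood at 26.4 ± 3.25 in the first run and 21.7 ± 2.57 in the second (SD, n = 5 each), a log2 difference of -0.30 ± 0.10 (SE, limma adjusted p = 0.168). Jag2 stood at 23 ± 1.41 and 26.3 ± 2.72, a log2 difference of 0.20 ± 0.09 (limma adjusted p = 0.310).

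The 3 libraries read as female (wild type 2, knockout 2 and knockout 3) stood apart from the 7 male ones in Hes1 and Notch4. Hes1, the Notch-induced repressor, lay between 25.8 and 31.4 per M in the females and between 18.3 and 25.2 in the males, and 2.03% of all tested genes were likewise higher in females without overlap. Notch4, the endothelial receptor, lay between 0.583 and 0.949 in the females and between 1.02 and 1.7 in the males, near the filter, and 1.68% of genes were lower in the same way. These were 1 and 1 of the 9 tested members, singled out after their values were seen. All 3 females belong to the first run, and sex and run cannot be fully told apart here; the difference was not tested.

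Other genes of the pathway were listed by role, 53 in all, of which 48 had a row and 43 were tested. Of these 0 passed in either direction with limma, with all libraries or without the doubted ones, where 0.402% of all genes passed; 6 and 9 had an unadjusted p under 0.05, against 9.48% and 13.1% of all genes. The log2 fold change was above 0 for 25 of 43 (median 0.03). Coactivators lay mostly above 0 (6 of 7, median 0.14). Among them Ep300, a histone acetyltransferase, stood at 101 ± 17.1 and 131 ± 8.58 per M (SD, n = 5 each), with a log2 fold change of 0.38 ± 0.10 (SE). Of the corepressors 6 of 7 lay above 0 (median 0.14), and Spen, an RNA-binding corepressor that acts with RBPJ, stood at 69.9 ± 13.9 and 95.5 ± 13.6 (SD, n = 5 each), with overlapping groups and a log2 fold change of 0.46 ± 0.12 (SE, limma adjusted p = 0.314). With the length trend removed the corepressors had a median of 0.03 and still 6 of 7 above 0 (Spen at 0.33). The coactivators then had a median of 0.13 with 6 of 7 above 0. Long coactivators moved more than this median, with Ep300 (14273 exon bases) going from 0.38 to 0.26 and Crebbp (13540) from 0.29 to 0.17. The median exon length was 11653 bases for the corepressors and 6598 for the coactivators, against 4290 over all genes tested.

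The cleavage machinery, with ADAM proteases and the gamma-secretase subunits, divided evenly (5 of 10 above 0, median -0.02). Its smallest p belonged to Furin, which processes the receptor in the Golgi, at 181 ± 8.74 and 202 ± 18.8 per M. Ligand ubiquitin ligases had 3 of 4 above 0, with Mib2, which acts on ligand uptake, at 27.9 ± 2.64 and 31.2 ± 4.68. Receptor glycosylation genes had 0 of 4 above 0, with Poglut1, an O-glucosyltransferase, at 21.7 ± 2.38 and 20.7 ± 3.43. Genes of receptor turnover and inhibition had 5 of 9 above 0, with Dtx2, a Deltex ubiquitin ligase, at 23.7 ± 3.99 and 26.4 ± 0.873. Of 7 genes listed as further targets 3 were tested, with a median exon length of 2582 bases against 4290 over all genes tested. All 3 lay below 0, and with the length trend removed 1 lay above 0. Among them Hes2 stood at 42.5 ± 8.13 and 33.4 ± 8.89, a log2 fold change of -0.36 ± 0.16 (SE, limma adjusted p = 0.502). Nrarp, also listed under receptor turnover and inhibition, was at -0.03 ± 0.27 (SE). Whether Notch drives these 3 genes in AT2 cells was not tested. In 3 of the 43 genes the groups did not overlap, namely Maml1 and Ep300, higher in knockout, and Hes6, lower; 0.958% and 0.633% of all genes did so in the same directions. Maml1 and Hes6 are named for this count, after their values were seen.

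**Figure D5:**
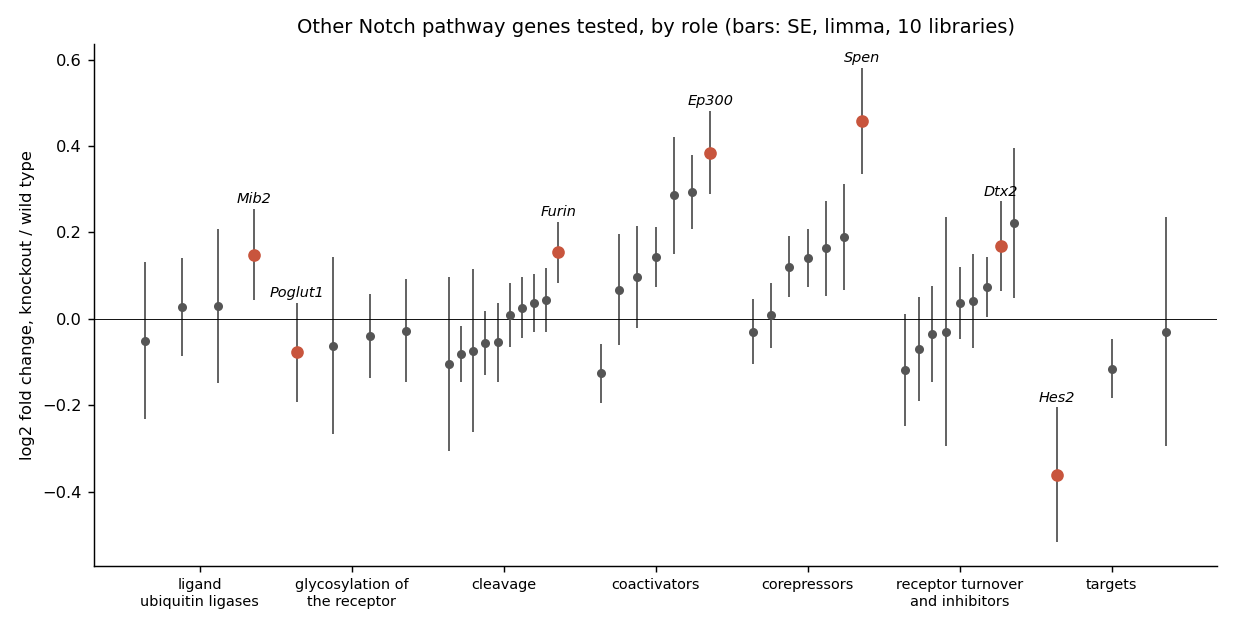
Log2 fold change, knockout over wild type, of the 43 other Notch pathway genes tested, by role, with SE from limma over all 10 libraries; the gene with the smallest p in each role is red and named. Most coactivators and corepressors lie above 0, and 0 genes passed after adjustment.

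The genes whose log2 values across the 10 libraries were most like those of Notch2 were Trim56 (Pearson r = 0.990), Erlin1 (0.971), Nav2 (0.970), Sf1 (0.968) and Atrx (0.963). All 5 were highest in knockout 3 and lowest in wild type 4, as was Notch2. Their exon lengths ran from 4961 (Erlin1) to 32228 bases (Nav2). The most like Hes1 were Ctsd (0.927), Eif3l (0.925), Apoe (0.925), Psmb10 (0.922) and Tmem37 (0.922). These 5 were highest in wild type 2, as was Hes1, and their exon lengths ran from 1311 to 3639 bases. Likeness was chosen among all tested genes and is a description of these libraries, which share the differences in sex, run and length trend given here.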

How the data were processed

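Polyadenylated RNA of sorted AT2 cells was sequenced, per the labels' protocols. Named in the submitters' processing notes are mm10, edgeR 3.14.0 and bcl2fastq 2.17. Neither aligner, strand setting nor normalization method was given in the sources used here. The deposited table holds a signal per gene, normalized counts made by the authors, with column totals of 6.94 to 7.43 M. Values were divided by the mean total (7.14 M). Whole reads could not be recovered, so no count test was run, and read numbers are rough, from each column's lowest values. Exon lengths and coordinates come from GENCODE M21 (mm10).

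The 12946 genes that reached 1 per M in 5 or more libraries were tested with limma-trend 3.58.1 (R 4.3.3) on log2(value per M + 0.5), two-sided, with Benjamini-Hochberg adjustment over all genes and a threshold of 0.05; fold changes on this scale understate those of low genes. p-values measure the spread between these libraries. The scripts were tested on simulated data. Sex was read from Xist and Y-linked genes.

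One gene of the wider pathway is not reported here and was left out of its list. The members and lists were chosen with earlier results of these data known. Named genes are the 10 members, Rbck1, in each role of the wider pathway the gene with the smallest p, and the 5 genes with an official symbol most like Notch2 and Hes1. Single cell type markers, Dll4, Crebbp, Maml1, Hes6, Nrarp and the gene overlapping Notch1 are named outside this rule, after their values were seen. Alternatives were other pseudocounts (0.1, 2), filters (none, 5 per M), TMM and median-ratio factors, a replicate block, run and sex as covariates, each run alone, removal of the exon-length trend (a spline with 4 degrees of freedom), and leaving out libraries. Omissions on top of the doubted libraries were added after seeing the data.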

Additional observations from a re-analysis of the deposited data

Results flagged for a closer look

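In 3 of 20 sets of 5 libraries (each member in each group), the library at one end stood further from its nearest neighbour than Dixon's 95% limit allows; chance gives about 1 in 20. Notch4 stood at 0.583 per M in the library labelled wild type 2, with its nearest neighbour at 1.47. Dll1 stood at 0.122 in the library labelled knockout 1, with its nearest neighbour at 0.494. Hey1 stood at 2.45 in wild type 4, with its nearest neighbour at 1.18. All 3 genes lie near or below the filter on low values, and each of these values rests on few reads.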

How the results depend on the processing

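Notch2 kept a log2 fold change above 0 under all 34 alternatives run for it (0.33 to 0.52), and Notch1 under all 23 (0.16 to 0.38). As labelled, the groups of Notch2 do not overlap. Leaving out libraries or changing the pseudocount or filter therefore could not turn its sign, and these alternatives are no support for it. More alternatives are given for Notch2 because those added after seeing the data were followed for it alone among the members. No member passed when a single library was left out of the 10 (0 to 0), nor did any other pathway gene (0 to 0), while the count over all genes ran from 0 to 4, the highest without knockout 1. Over all genes the count was 1 with the run as a covariate, 41 in the second run alone, and 52 without wild type 2 and knockout 1, the last also with the length trend removed; with sex as a covariate there it was 27. Leaving out 1 more library gave 74, 26, 19 and 100 genes (without wild type 3, 4, 5 and 6) and 39, 32, 84 and 39 (without knockout 2, 3, 4 and 5), 0 to 1 members (Notch2 at 0.50 without wild type 6 or knockout 4) and 0 to 1 other pathway genes (Hes2, lower, without knockout 4). No label says that the replicate numbers pair the mice. Deviations of same-numbered libraries correlated at 0.03 to 0.31, highest for number 2, where both libraries were read as female. In both groups numbers 2 and 3 belong to the first run and 4 and 5 to the second. The numbers thus also carry the run, and whether they pair the mice cannot be settled here. With the replicate number as a block, on libraries 2 to 5 of both groups, 259 genes passed (2% of all tested). Among them were 2 members, Notch2 (0.52) and Notch1 (0.38), and 3 other pathway genes (Crebbp, Spen, Ep300). This set keeps the doubted wild type 2 and leaves out knockout 1 and wild type 6. Those were the lowest knockout (174 per M) and the highest wild type (167) in Notch2. Wild type 6 (102) was also the only library through which the Notch1 groups overlapped. Leaving them out therefore widened both contrasts, and these calls support nothing. Without the block the same 8 libraries gave 22 genes and 1 member, Notch2. The count between runs (81) was 51 with the filter at 5 per M, where fewer genes were tested, and 18 (without wild type 2) to 139 (without knockout 1) when a library was left out.

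Signs turned for 6 of the 9 members under some alternatives, and the cause was not tested. These were Notch3 (-0.18) and Jag1 (-0.0382) in the second run, Notch4 (0.0242) and Jag2 (-0.0425) in the first, Jag2 with the length trend removed (-0.0241), Hes1 without the doubted libraries (0.0183), and Hey1 under the block (-0.0513) and in the second run (-0.16). With 1 library left out, Jag2 ran from -0.0299 to 0.0901, Hes1 from -0.13 to 0.0197 and Hey1 from -0.0507 to 0.27. Depth limits Notch4, Hey1 and Dll1, with at most 21.5 reads in a library.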
